A study of Mus musculus with 3 samples.

Results

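The 39 Hox genes of the mouse, taken as every gene whose symbol is Hoxa, Hoxb, Hoxc or Hoxd followed by a number, were examined among the 32545 genes of the expression table. They lie in 4 clusters, with 11 genes in Hoxa, 10 in Hoxb, 9 in Hoxc and 9 in Hoxd. The values are RNA-seq TPM (a level per transcript length, scaled so that each sample sums to 1000000) from E3 mouse embryonic stem cells (ESCs) at passage 7. KD4 and KD9 are stable, puromycin-selected Usp17l knockdown lines, made with shRNAs against the region that the Usp17l deubiquitinase genes have in common, and Control is E3 that received the empty vector. All 3 are E3 cells cultured in the usual way, and the methods describe E3 as kept on mouse embryonic fibroblast (MEF) feeder cells with serum and LIF. The labels name 1 sample per line and 1 control. Each knockdown line has 2 columns of values, which are printed side by side and were averaged as 1 sample for every fold change. The question here is how the 4 clusters and the paralog positions along them compared in KD4 and KD9 against Control.

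Hox genes encode homeodomain transcription factors that give cells their position along the head-to-tail axis and in the limbs. In each cluster the genes are numbered from the end that is active in the front of the embryo to the end that is active in its rear, and genes with the same number in different clusters (paralogs) descend from 1 ancestral gene. In pluripotent ESCs the clusters are known as silent domains held by Polycomb complexes, which place H3K27me3 and H2AK119ub1, and retinoic acid opens them from the anterior end. Fibroblasts, by contrast, are known to keep the Hox pattern of the body region that they came from.

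On the mm10 build, with coordinates from GENCODE, the Hoxa genes from Hoxa2 to Hoxa13 span chr6:52162417-52260880 on the minus strand, and the Hoxb genes span chr11:96194316-96368256 on the plus strand. The Hoxc genes span chr15:102921103-103036852 and the Hoxd genes chr2:74668310-74765142, both on the plus strand. Some spans overlap, since the annotated Hoxa3 reaches over Hoxa4, Hoxa5 and Hoxa6, Hoxc5 reaches over Hoxc6, Hoxc8, Hoxc9 and Hoxc10, and Hoxd3 overlaps Hoxd4. Only whole spans were compared, not exons. Where exons are shared as well, reads can be lost, which makes the values of these genes less certain.

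RefSeq promoters (250 bases before to 50 bases after a start, GRCm38.p6) were given for 22 of the 39 genes in 24 entries, and 3 of them are shown, for genes with 3 kinds of pattern. Hoxb1 was close to 0 in both knockdown lines, Hoxb4 lay below Control in KD4 and above it in KD9, and Hoxd13 is the posterior end of its cluster, where the values in KD4 lay on both sides of Control. Capitals mark a PBX-HOX site (TGATNNAT) in Hoxb1, the nuclear receptor half-site AGGTCA on the minus strand in Hoxb4, and the TATA box TATAAA in Hoxd13, where the copies on the 2 strands overlap. The windows are chr11:96365508-96365807, chr11:96318017-96318316 and chr2:74667975-74668274, all on the plus strand.
Hoxb1: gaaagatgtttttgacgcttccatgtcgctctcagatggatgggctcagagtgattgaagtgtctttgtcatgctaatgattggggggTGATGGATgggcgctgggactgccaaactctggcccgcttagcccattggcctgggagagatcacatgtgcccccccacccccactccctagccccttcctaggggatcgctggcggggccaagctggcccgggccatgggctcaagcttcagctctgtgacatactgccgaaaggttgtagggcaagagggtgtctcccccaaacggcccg
Hoxb4: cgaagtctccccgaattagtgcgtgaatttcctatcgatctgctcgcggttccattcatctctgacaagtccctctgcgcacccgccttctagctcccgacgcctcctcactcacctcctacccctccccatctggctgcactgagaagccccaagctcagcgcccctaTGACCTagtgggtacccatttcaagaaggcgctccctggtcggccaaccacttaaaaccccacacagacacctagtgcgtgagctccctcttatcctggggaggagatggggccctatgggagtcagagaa
Hoxd13: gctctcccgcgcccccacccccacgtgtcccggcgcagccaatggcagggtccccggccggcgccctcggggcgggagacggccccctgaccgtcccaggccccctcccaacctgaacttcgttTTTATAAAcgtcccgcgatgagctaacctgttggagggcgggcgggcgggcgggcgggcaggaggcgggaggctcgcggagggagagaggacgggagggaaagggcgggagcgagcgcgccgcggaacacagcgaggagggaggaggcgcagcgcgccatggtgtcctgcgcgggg

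On both strands, TGATNNAT was found in 4 of 24 Hox promoters and in 8.85% of 32851 RefSeq promoters of the same length. AGGTCA was found in 7 of 24 and in 16.3%, and TATAAA in 4 of 24 and in 13.6%. The Hox promoters held between 4 and 45 CpG dinucleotides, with a median of 14.5 against 7 over all promoters. A match describes the letters of the window only.

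The targeted genes were checked first. Usp17le, the family member named for the study's enzyme, had 0.151 and 0.0637 TPM in KD4, 0.331 and 0.374 TPM in KD9 and 1.82 TPM in Control. Usp17lb had 0.128 and 0.325 TPM in KD4, 0.421 and 0.238 TPM in KD9 and 1.12 TPM in Control. Both were lower in every knockdown column, as were Usp17la, Usp17lc and Usp17ld at a mean TPM under 0.5. The ESC label held, with Pou5f1 at 1025 and 1060 TPM in KD4, 686 and 693 TPM in KD9 and 698 TPM in Control. Fibroblast markers were high as well, with Col1a1, the main collagen of connective tissue, at 182 and 184 TPM in KD4, 767 and 760 TPM in KD9 and 1198 TPM in Control. Over the 19950 tested genes (mean TPM of the 3 samples 0.5 or higher) the columns of a line had a Pearson r of 0.956 in KD4 and 0.968 in KD9 across genes. The median difference between the columns of a line was 0.14 on the log2 scale in KD4 and 0.0937 in KD9, and over the Hox genes it was 0.259 and 0.112 in the same order. TPM keeps no depth, so the depth behind each value is unknown.

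Hox transcripts were present in every column at low levels, and their total was lower in KD4 than in KD9 and Control. The summed Hox TPM was 97.1 and 104 in KD4, 195 and 191 in KD9 and 195 in Control. KD4 thus held 51.7% of the Control sum and KD9 99.2%, a value that lies just above Control under a rescaling by median ratios. The median Hox gene stood at 1.61 and 2.01 TPM in KD4, 3.74 and 3.60 TPM in KD9 and 3.32 TPM in Control, where the median of the tested genes was between 10.2 and 10.8 TPM in each column. At least 1 TPM was reached by 28 and 27 of the 39 Hox genes in KD4, 31 and 33 in KD9 and 32 in Control. Hoxb9, which patterns the thoracic skeleton, was the most abundant in every column and took 12.8% and 12.2% of the Hox sum in KD4, 12.6% and 12.4% in KD9 and 16.9% in Control.

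Of the 39 genes, 37 passed this filter on low values. In KD4 14 of them were more than 2-fold lower than in Control and none was more than 2-fold higher, where the background over all tested genes was 9.50% lower and 5.18% higher. The median log2 fold change of the 37 genes was -0.88 in KD4, against -0.02 over all tested genes, and 34 of the 37 lay below 0 (background 52.1%). In KD9 4 genes were more than 2-fold lower and 1 was more than 2-fold higher (background 5.45% and 4.21%), the median was 0.20, and 13 of the 37 lay below 0 (57.0%) and 24 above. The more than 2-fold lower genes of each line include Hoxb1 and Hoxb13. Both passed the filter through their Control value alone, so these calls were built into the filter. Both KD4 columns lay below Control for 31 genes (background 43.9%), both KD9 columns for 10 (49.8%), and all 4 knockdown columns for 10 (30.1%). All 4 lay above Control for 2 genes, Hoxa9 and Hoxd11 (20.5%). Fold changes are on the log2(TPM + 0.1) scale, which understates low genes, and a single line has no replicate check. With a pseudocount of 1, 8 genes were more than 2-fold lower in KD4 and none was more than 2-fold higher in KD9. Both lines are set against the same Control column, so their fold changes are not independent.

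**Figure D1:**
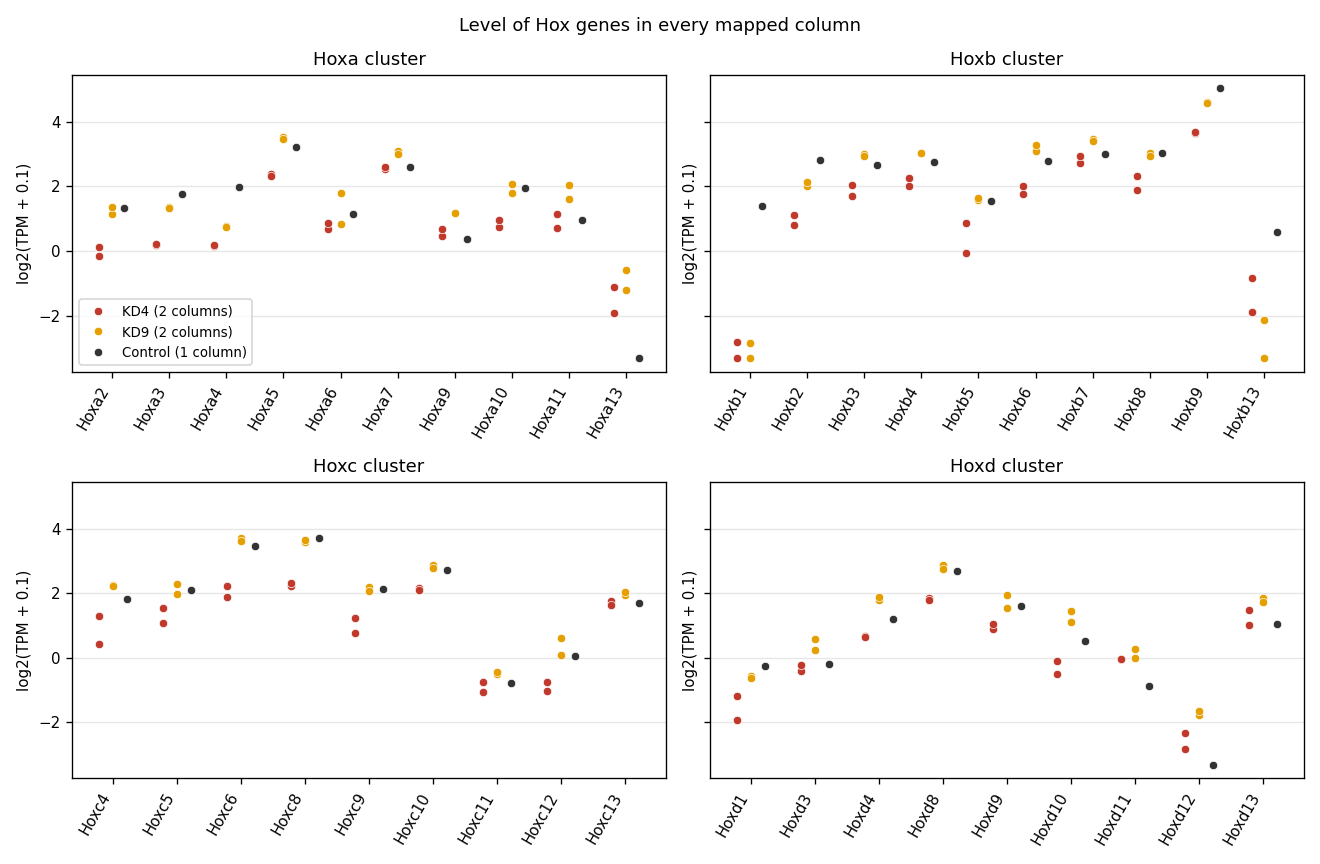
Levels of 38 of the 39 Hox genes as log2(TPM + 0.1), with 1 panel per cluster and genes in order of paralog position. Points are single columns, 2 for KD4, 2 for KD9 and 1 for Control. KD4 points lie lowest for most genes, while Hoxb1 is near the floor of the scale in both lines against 2.52 TPM in Control.

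With KD4 and KD9 as replicates and Control assumed to have the same spread, limma called 0 of the 37 Hox genes at a Benjamini-Hochberg adjusted p under 0.05 and 0 of all 19950 genes (background 0%). At an unadjusted p under 0.05 it called 4 Hox genes lower and 0 higher, where the background was 2.68% and 2.54%. Among the 4 were Hoxb1 and Hoxb13, which passed the filter through Control alone. In a planned second fit, with each column as its own library, limma called 6 of the 37 genes lower (Hoxb9, Hoxa4, Hoxc8, Hoxb1, Hoxb2 and Hoxa3) and 0 higher, against a background of 6.94% and 3.91%. Against Control it called 13 genes lower and 0 higher in KD4 (12.2% and 8.37%), and 0 in either direction in KD9 (3.11% and 1.99%), where 6 were lower and 6 higher at an unadjusted p under 0.05. That fit takes its error from the columns within a line. The labels do not show that these columns are separate cultures, so its p-values may measure technical spread only.

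The genes that lay more than 2-fold under Control in both lines numbered 4, among them Hoxa4, Hoxb1 and Hoxb13. A share of 3.20% of all tested genes met this rule, and 0 Hox genes were more than 2-fold higher in both lines (background 2.47%). With KD4 as the only line the count was 14, and with KD9 as the only line it was 4. A mean TPM of at least 1 or a pseudocount of 1 left 2 such genes each. Hoxb1 and Hoxb13 passed the filter through their Control value alone, so their place in this count depends on that 1 value. Hoxa13 and Hoxd12, listed at 0 in Control, failed the filter. Without a filter 1 Hox gene was more than 2-fold higher in both lines.

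Hoxb1, a retinoic acid target that sets hindbrain segment identity and facial nerve fate, had 0.0432 and 0 TPM in KD4, 0 and 0.0400 TPM in KD9 and 2.52 TPM in Control. All 4 knockdown values were at or near the floor, 1 column of each line was listed at 0, and the groups did not overlap. On the log2 scale KD4 was at -4.43 and KD9 at -4.45 relative to Control, or at -1.78 and -1.79 with a pseudocount of 1. Over both lines limma gave -4.44 (SE 0.75, adjusted p = 0.666).

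Hoxa4, which patterns the cervical spine, had 1.01 and 1.03 TPM in KD4, 1.60 and 1.57 TPM in KD9 and 3.85 TPM in Control. Here KD4 lay below KD9 and both below Control, with log2 fold changes of -1.82 and -1.23 (limma -1.52, SE 0.48, adjusted p = 0.883). Hoxb13, which acts in the prostate and the tail end of the spinal cord, had 0.454 and 0.172 TPM in KD4, 0 and 0.126 TPM in KD9 and 1.41 TPM in Control. Its knockdown values were below Control in every column, at a log2 fold change of -1.87 for KD4 and -3.21 for KD9 (limma -2.54, SE 0.88, adjusted p = 0.931). It was the only tested Hox gene whose KD4 columns both lay above its KD9 columns.

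In the Hoxa cluster the anterior genes stood furthest below Control in KD4. Hoxa2, which sets the identity of the second pharyngeal arch, had 0.790 and 0.999 TPM in KD4, 2.13 and 2.46 TPM in KD9 and 2.42 TPM in Control. Hoxa3, needed for thymus and parathyroid formation, had 1.05 and 1.05 TPM in KD4, 2.49 and 2.40 TPM in KD9 and 3.32 TPM in Control. Both were more than 2-fold lower in KD4 only, with log2 fold changes of -1.34 for Hoxa2 and -1.57 for Hoxa3 there, against -0.07 and -0.43 in KD9.

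Hoxa5, a regulator of lung and neck skeleton development, had 5.18 and 4.93 TPM in KD4, 11.4 and 11.0 TPM in KD9 and 9.14 TPM in Control. Hoxa6, a central gene, had 1.49 and 1.74 TPM in KD4, 1.69 and 3.40 TPM in KD9 and 2.12 TPM in Control. Hoxa7, another central gene, had 5.71 and 5.99 TPM in KD4, 8.49 and 7.99 TPM in KD9 and 6.03 TPM in Control. Hoxa5 lay below Control in KD4 and above it in KD9, Hoxa6 overlapped across lines, and Hoxa7 in KD4 was within 0.04 of Control on the log2 scale.

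Hoxa9, a driver of blood progenitor growth, had 1.29 and 1.50 TPM in KD4, 2.15 and 2.17 TPM in KD9 and 1.21 TPM in Control. Hoxa10, which acts in the uterus and lumbar spine, had 1.56 and 1.86 TPM in KD4, 4.07 and 3.38 TPM in KD9 and 3.76 TPM in Control. Hoxa11, needed for the forearm and kidney, had 1.53 and 2.10 TPM in KD4, 3.99 and 2.93 TPM in KD9 and 1.83 TPM in Control. Hoxa9 was above Control in all 4 knockdown columns, Hoxa10 was more than 2-fold lower in KD4 alone (log2 -1.09, against -0.01 in KD9), and Hoxa11 straddled Control in KD4. Hoxa13, the gene of hand and foot plates, failed the filter. It was listed at 0 in Control and had 0.162 and 0.359 TPM in KD4 and 0.333 and 0.564 TPM in KD9, so no fold is given.

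The Hoxb cluster held the largest sum, and each of its 10 tested genes was below Control in KD4. Hoxb2, a hindbrain patterning gene, had 1.64 and 2.07 TPM in KD4, 3.94 and 4.32 TPM in KD9 and 6.93 TPM in Control. Hoxb3, its hindbrain neighbour, had 3.16 and 3.99 TPM in KD4, 7.93 and 7.63 TPM in KD9 and 6.21 TPM in Control. Hoxb4, known for expanding blood stem cells, had 3.94 and 4.74 TPM in KD4, 8.04 and 8.04 TPM in KD9 and 6.72 TPM in Control. Hoxb2 was lower than Control in both lines (log2 -1.85 in KD4 and -0.73 in KD9), while Hoxb3 and Hoxb4 were below it in KD4 and above it in KD9.

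Hoxb5 had 1.73 and 0.864 TPM in KD4, 2.86 and 3.04 TPM in KD9 and 2.83 TPM in Control. Hoxb6 had 3.98 and 3.29 TPM in KD4, 8.46 and 9.66 TPM in KD9 and 6.85 TPM in Control. Hoxb7 had 6.49 and 7.63 TPM in KD4, 11.1 and 10.5 TPM in KD9 and 8.02 TPM in Control. For these central genes the 3 groups did not overlap and followed 1 order, KD4 below Control below KD9, although Hoxb5 in KD9 exceeded Control by only 0.06 on the log2 scale.

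Hoxb8, which acts in the spinal cord and in myeloid cells, had 3.57 and 4.86 TPM in KD4, 8.05 and 7.66 TPM in KD9 and 8.14 TPM in Control. Hoxb9 had 12.4 and 12.7 TPM in KD4, 24.7 and 23.7 TPM in KD9 and 32.8 TPM in Control. Hoxb9 was the clearest of the abundant genes, with tight columns, no overlap between the groups, and a log2 fold change of -1.38 for KD4 and -0.44 for KD9. With the columns as libraries, limma gave it an adjusted p of 0.00462 in KD4 and 0.0515 in KD9, and with the lines as replicates the adjusted p was 0.9996.

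Most Hoxc genes were lower in KD4 than in KD9 and Control. Hoxc4 had 1.25 and 2.37 TPM in KD4, 4.68 and 4.56 TPM in KD9 and 3.42 TPM in Control. Hoxc5 had 2.82 and 2.01 TPM in KD4, 4.74 and 3.85 TPM in KD9 and 4.17 TPM in Control. Hoxc6, a gene of the thoracic region, had 3.58 and 4.52 TPM in KD4, 13.1 and 12.1 TPM in KD9 and 11.0 TPM in Control. KD4 was the low group for each of these anterior and central genes, and the Hoxc5 columns of KD9 lay on both sides of Control.

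Hoxc8, which patterns ribs and brachial motor neurons, had 4.53 and 4.92 TPM in KD4, 11.8 and 12.5 TPM in KD9 and 12.9 TPM in Control. Hoxc9, the thoracic motor neuron gene, had 1.61 and 2.24 TPM in KD4, 4.50 and 4.06 TPM in KD9 and 4.29 TPM in Control. Hoxc10, a gene of the lumbar region and hindlimb, had 4.36 and 4.18 TPM in KD4, 7.28 and 6.82 TPM in KD9 and 6.54 TPM in Control. Hoxc6, Hoxc8 and Hoxc9 were more than 2-fold lower in KD4, with log2 fold changes of -1.42, -1.43 and -1.12, against 0.20, -0.09 and -0.005 in KD9.

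Hoxc11 had 0.496 and 0.376 TPM in KD4, 0.610 and 0.644 TPM in KD9 and 0.482 TPM in Control. Hoxc12 had 0.389 and 0.491 TPM in KD4, 0.957 and 1.44 TPM in KD9 and 0.946 TPM in Control. Hoxc13, which drives hair and nail keratin genes, had 3.30 and 2.99 TPM in KD4, 3.74 and 4.005 TPM in KD9 and 3.17 TPM in Control. Control lay between the KD4 columns for Hoxc11 and Hoxc13, and Hoxc12 in KD4 was about 1 unit lower on the log2 scale (-0.95).

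The Hoxd cluster had the lowest sum and, as a share of Control, the highest sum in KD4. Hoxd1, a gene of pain-sensing neurons, had 0.161 and 0.340 TPM in KD4, 0.574 and 0.549 TPM in KD9 and 0.733 TPM in Control. Hoxd3, which shapes the upper cervical vertebrae, had 0.646 and 0.756 TPM in KD4, 1.08 and 1.40 TPM in KD9 and 0.768 TPM in Control. Hoxd4, its neighbour, had 1.50 and 1.46 TPM in KD4, 3.32 and 3.60 TPM in KD9 and 2.22 TPM in Control. Hoxd1 was the only Hoxd gene more than 2-fold lower in KD4 (log2 -1.25, against -0.33 in KD9), and Hoxd3 and Hoxd4 were higher than Control in both KD9 columns.

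Hoxd8, a trunk gene, had 3.47 and 3.37 TPM in KD4, 7.22 and 6.57 TPM in KD9 and 6.39 TPM in Control. Hoxd9 had 1.74 and 1.96 TPM in KD4, 2.81 and 3.74 TPM in KD9 and 2.92 TPM in Control. Hoxd10, which acts in hindlimb motor neurons, had 0.607 and 0.837 TPM in KD4, 2.63 and 2.05 TPM in KD9 and 1.34 TPM in Control. KD4 was lowest for all 3 of these genes, and Hoxd10 in KD9 was above Control by 0.76 on the log2 scale.

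Hoxd11, which acts with Hoxa11 in the forearm, had 0.880 and 0.872 TPM in KD4, 0.898 and 1.10 TPM in KD9 and 0.440 TPM in Control. Hoxd13, the digit gene, had 1.94 and 2.70 TPM in KD4, 3.54 and 3.22 TPM in KD9 and 1.96 TPM in Control. Hoxd11 was higher in all 4 knockdown columns (log2 0.85 in KD4 and 1.03 in KD9), and limma with the lines as replicates gave 0.94 (SE 0.54, adjusted p = 0.9996). Hoxd12 failed the filter, was listed at 0 in Control, and had 0.0395 and 0.09997 TPM in KD4 and 0.195 and 0.220 TPM in KD9.

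By cluster, more than 2-fold lower genes in KD4 numbered 5 of 10 tested in Hoxa, 5 of 10 in Hoxb, 3 of 9 in Hoxc and 1 of 8 in Hoxd, where the background was 9.50%, so that the Hoxd count was near it. The Hoxb count includes Hoxb1 and Hoxb13, which passed the filter through their Control value alone. The median log2 fold changes in KD4 were -0.97 for Hoxa, -1.003 for Hoxb, -0.88 for Hoxc and -0.59 for Hoxd. In KD9 the medians were 0.12, 0.003, 0.20 and 0.62 in the same order. The Hoxd sum was 11.0 and 12.4 TPM in KD4, 22.3 and 22.5 TPM in KD9 and 16.8 TPM in Control. It stood at 69.6% of Control in KD4 and 133% in KD9, while the Hoxb sum stood at 47.1% and 90.8%, the Hoxa sum at 55.6% and 92.9%, and the Hoxc sum at 49.5% and 108%. The clusters are parts of the same libraries, and the differences between them were not tested.

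**Figure D2:**
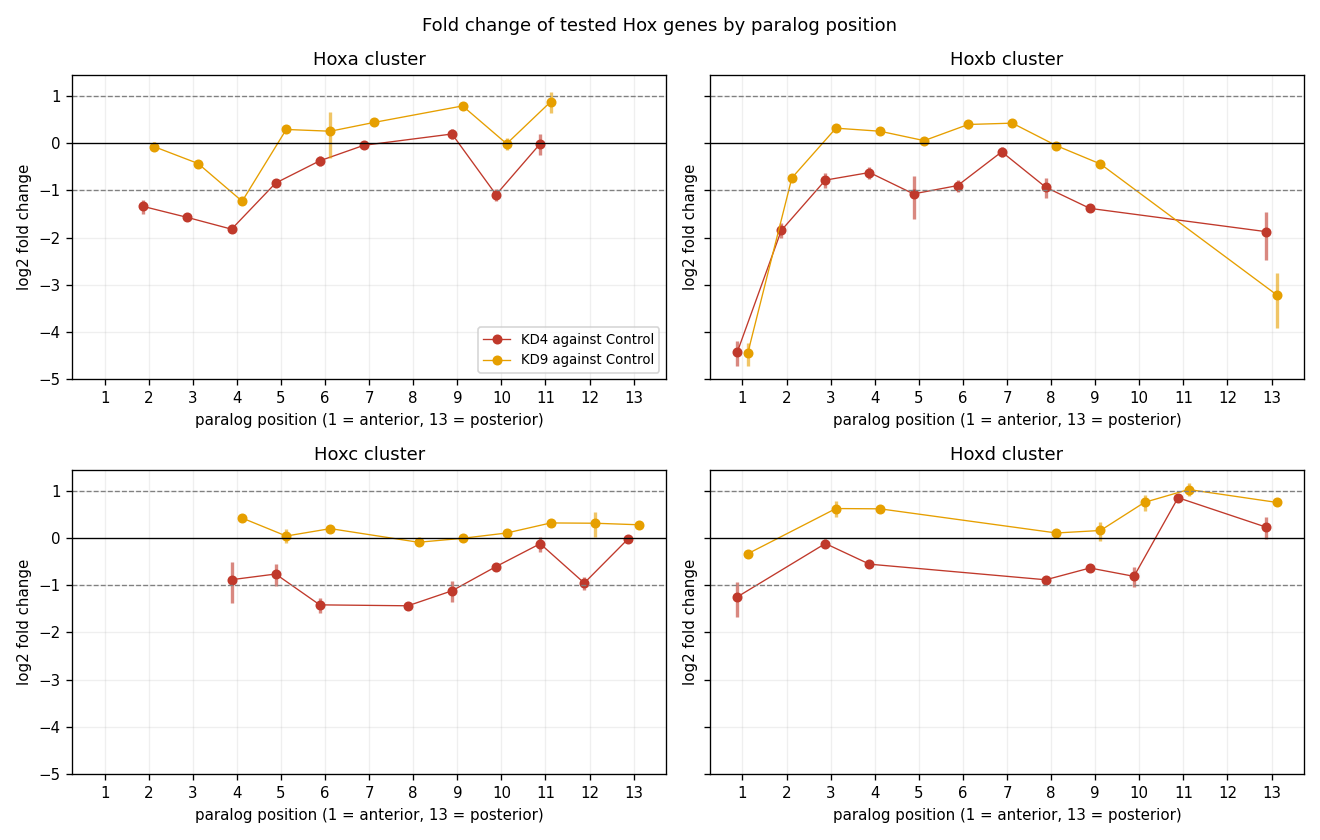
Log2 fold change against Control on the log2(TPM + 0.1) scale by paralog position for 36 of the 37 tested Hox genes, with 1 panel per cluster. Points are the means of the columns of KD4 and KD9, vertical bars span the 2 columns, and dashed lines mark a 2-fold change. KD4 lies below KD9 at nearly every position, and Hoxb1 at position 1 reaches -4.43 in KD4 and -4.45 in KD9.

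By position, the anterior genes (positions 1 to 4) were further below Control than the posterior genes (positions 9 to 13). In KD4 7 of 12 anterior genes, 3 of 11 central genes (positions 5 to 8) and 4 of 14 tested posterior genes were more than 2-fold lower (background 9.50%). Their medians were -1.24, -0.88 and -0.62. In KD9 the numbers more than 2-fold lower were 3, 0 and 1 (background 5.45%), so that the central and posterior counts were near it. In each line the anterior count includes Hoxb1 and the posterior count Hoxb13. Both genes passed the filter through their Control value alone, so their calls do not bear on a contrast of positions. The medians in KD9 were -0.20, 0.20 and 0.30. The anterior sum was 21.8 and 24.7 TPM in KD4, 43.9 and 42.2 TPM in KD9 and 53.9 TPM in Control, or 43.1% of Control in KD4 and 79.9% in KD9. The posterior sum was 32.8 and 35.4 TPM in KD4, 62.4 and 60.2 TPM in KD9 and 63.1 TPM in Control, or 54.0% and 97.1%, the KD9 share being just above Control after the same rescaling. Without Hoxb9 the posterior share of Control was 71.1% in KD4 and 122% in KD9.

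The paralog groups spread widely. Position 2 (Hoxa2 and Hoxb2), the lowest in KD4, stood at 29.4% of Control in KD4 and 68.7% in KD9. Position 11 (Hoxa11, Hoxc11 and Hoxd11) stood at 114% in KD4 and 185% in KD9, the highest share of any paralog group in KD4 and in KD9.

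Spearman's rho of position with log2 fold change over the 37 tested genes was 0.41 for KD4 and 0.37 for KD9. It is given as a description, since all points share the same libraries and the same Control. Without Hoxb1 it was 0.37 and 0.31. It was 0.73 in KD4 and 0.78 in KD9 over the 10 Hoxa genes and 0.57 and 0.71 over the 8 Hoxd genes. Hoxb, where the outermost genes Hoxb1 and Hoxb13 were both low, had 0.07 and 0.08 over 10 genes, and Hoxc had 0.47 and 0.15 over 9 genes.

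KD4 was then compared with KD9. The differences do not use the Control values, but the filter that set the tested genes does. In 33 of the 37 tested genes both KD4 columns lay below both KD9 columns, where 29.9% of all tested genes did so, and in 1 gene they lay above (38.5%). In KD4 15 genes were more than 2-fold lower than in KD9 and 1, Hoxb13, was more than 2-fold higher (background 7.67% and 3.27%). Hoxb13 passed the filter through its Control value alone, and all its knockdown values were under 0.5 TPM, so its call rests on values near the floor. The median difference was -0.89, against 0.06 over all tested genes, and by cluster it was -0.76 in Hoxa, -0.91 in Hoxb, -1.11 in Hoxc and -0.86 in Hoxd. With a pseudocount of 1 the count of more than 2-fold lower genes was 5. With the columns as libraries limma called 19 of the 37 genes lower in KD4 than in KD9 and 0 higher (background 13.4% and 14.9%), although at the level of the labelled samples there is 1 sample per line and no test. Hoxb9 had the lowest adjusted p of them (0.00505), with a log2 difference of -0.94 (SE 0.05). Hoxc8 (-1.35, SE 0.08, adjusted p = 0.00581) and Hoxa5 (-1.14, SE 0.07, adjusted p = 0.00627) came next.

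Fibroblast markers differed between the same samples. All 24 markers of the list were below Control in KD4 (background 52.1%), 22 of them more than 2-fold (9.50%). All 24 had both KD4 columns below both KD9 columns (29.9%). Their summed TPM was 2357 and 2379 in KD4, 5630 and 5555 in KD9 and 7375 in Control, which is 32.1% of Control in KD4 and 75.8% in KD9, and no marker was listed at 0 in any column. In KD9 18 of 24 markers were below Control (background 57.0%), while 24 of 37 Hox genes were above it (8560 of the 19950 tested genes). Col3a1, a collagen of loose connective tissue, had 6.14 and 6.66 TPM in KD4, 125 and 128 TPM in KD9 and 114 TPM in Control. Lum, which encodes a matrix proteoglycan, had 0.287 and 0.310 TPM in KD4, 13.4 and 12.2 TPM in KD9 and 2.07 TPM in Control. Thy1, a fibroblast surface marker, had 49.9 and 50.3 TPM in KD4, 160 and 165 TPM in KD9 and 242 TPM in Control.

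Per 1000 TPM of the fibroblast sum, the Hox sum was 41.2 and 43.8 TPM in KD4, 34.7 and 34.3 TPM in KD9 and 26.4 TPM in Control. This ratio of separate sums was lowest in Control. The part of these markers in the Hox differences was not tested, and in bulk samples fewer cells of a type and less RNA per cell cannot be told apart.

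Markers of other cell types were compared in the same way. The 5 tested primitive endoderm genes were below Control in all 4 knockdown columns (background 30.1%). More than 2-fold lower were 2 of them in KD4 (9.50%) and 3 in KD9 (5.45%). The summed TPM of that list was 38.1 and 38.5 in KD4, 40.9 and 38.5 in KD9 and 69.8 in Control. Sox17, an endoderm regulator, had 0.336 and 0.319 TPM in KD4, 0.293 and 0.136 TPM in KD9 and 1.37 TPM in Control. Like Hoxb1, Sox17 passed the filter through its Control value alone, so its place in the primitive endoderm counts depends on that 1 value. Of 4 tested neural genes 3 were below Control in all 4 knockdown columns (background 30.1%). Sox1, a neural progenitor gene, had 4.06 and 4.85 TPM in KD4, 2.08 and 2.60 TPM in KD9 and 11.3 TPM in Control. The summed TPM of the neural list was 58.9 and 65.7 in KD4, 58.1 and 58.8 in KD9 and 88.2 in Control. Of 10 pluripotency genes 9 were above Control in KD4 and 5 in KD9. Of the 19950 tested genes 9529 were above it in KD4 and 8560 in KD9, so that the KD9 count was near that share. The summed TPM of the pluripotency list was 6649 and 6559 in KD4, 4871 and 4878 in KD9 and 4737 in Control. Below Control were 3 of 5 tested trophectoderm genes in each line, and 1 of 4 tested mesoderm genes in KD4 and 2 in KD9. The background was 52.1% in KD4 and 57.0% in KD9, so that the trophectoderm counts and the KD9 mesoderm count were near it. The summed TPM was 115 and 114 in KD4, 99.6 and 96.7 in KD9 and 131 in Control for the trophectoderm list, and 10.8 and 10.6 in KD4, 14.2 and 15.2 in KD9 and 17.6 in Control for the mesoderm list. No tested marker of these lists was listed at 0 in any column, while Elf5, a defining trophectoderm gene under the filter, was listed at 0 in both KD4 columns, 1 KD9 column and Control. The part of these markers in the Hox differences was not tested.

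**Figure D3:**
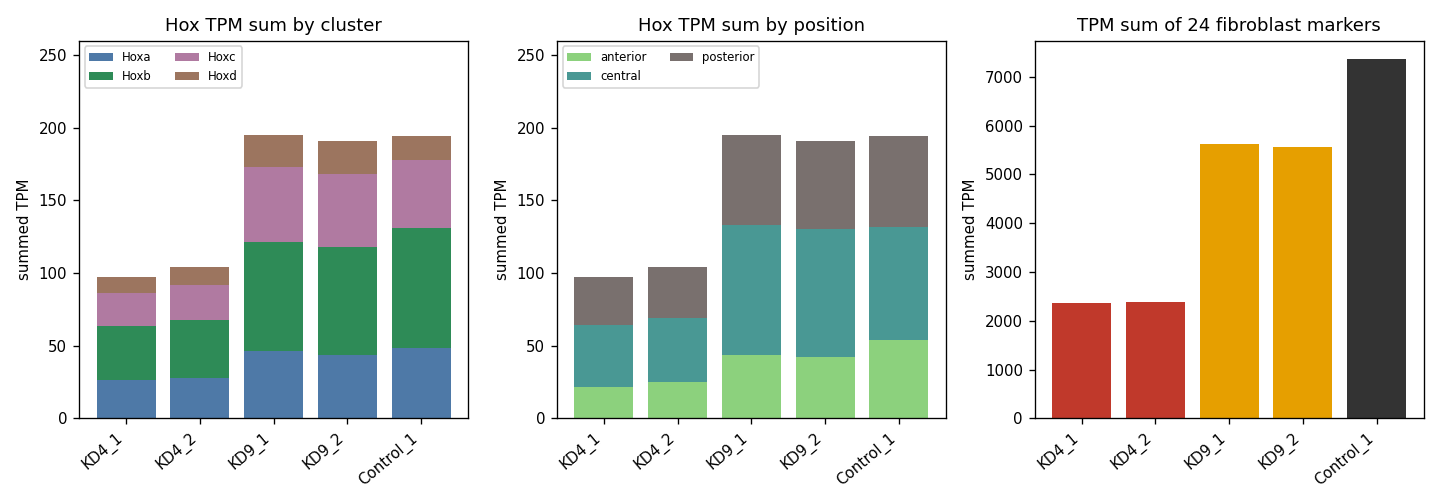
Summed TPM in each column, with KD4 and KD9 left of Control. The left and middle panels stack the 39 Hox genes by cluster and by position zone, and the right panel sums 24 fibroblast markers. The Hox sum in KD4 is 51.7% of Control and in KD9 99.2%, while the fibroblast sum is 32.1% and 75.8%.

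Hox proteins bind DNA with the TALE homeodomain cofactors Pbx, Meis and Pknox. Of 9 such genes tested, 1 (Meis2) was more than 2-fold lower in KD4, near the background of 9.50%. None passed 2-fold in KD9, near the background of 5.45% lower and 4.21% higher. Meis1 had 2.17 and 2.06 TPM in KD4, 3.73 and 3.79 TPM in KD9 and 3.69 TPM in Control. Meis1 was lowest in KD4 with no overlap between the lines, but the list as a whole did not share this. Both KD4 columns lay below both KD9 columns for 4 of the 9 genes and above them for 3 (background 29.9% and 38.5%). The median log2 difference, KD4 minus KD9, was 0.002 over the 9 genes, against -0.89 over the Hox genes. Pbx4 was above Control in all 4 knockdown columns (log2 0.69 in KD4 and 0.69 in KD9).

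Polycomb and trithorax genes, whose products silence and activate Hox clusters, were counted by the same rule. Of 32 Polycomb genes tested, 0 were more than 2-fold lower and 3 (Jarid2, Phf19 and Aebp2, accessory subunits of PRC2) were more than 2-fold higher in KD4 (background 9.50% and 5.18%), and 0 passed in either direction in KD9 (5.45% and 4.21%). Jarid2 had 168 and 178 TPM in KD4, 83.7 and 87.9 TPM in KD9 and 85.3 TPM in Control. Ezh2, the PRC2 methyltransferase, had 60.6 and 63.3 TPM in KD4, 43.9 and 43.0 TPM in KD9 and 58.9 TPM in Control. Rnf2, the main H2AK119 ubiquitin ligase, had 79.3 and 78.8 TPM in KD4, 65.6 and 64.7 TPM in KD9 and 75.9 TPM in Control. Ezh2 and Rnf2 thus stood close to Control in KD4 (log2 0.07 and 0.06) and below it in KD9 (-0.44 and -0.22). None of 13 trithorax genes passed the 2-fold rule in either line, and Kmt2a, the MLL methyltransferase that maintains Hox expression, had 13.9 and 14.0 TPM in KD4, 12.5 and 12.9 TPM in KD9 and 14.3 TPM in Control.

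Genes that make, degrade, bind or respond to retinoic acid, the signal that opens Hox clusters, were examined next. Of 15 tested, 9 were more than 2-fold lower and 0 more than 2-fold higher in KD4 (median -1.48, background 9.50% and 5.18%), and 4 were lower and 2 higher in KD9 (5.45% and 4.21%). The receptor genes Rara (log2 -0.15), Rxra (-0.33), Rxrb (0.19) and Rarg (0.67) did not pass 2-fold in KD4. Rarb, a receptor gene that retinoic acid itself induces, had 0.514 and 0.650 TPM in KD4, 1.34 and 1.25 TPM in KD9 and 2.87 TPM in Control. Cyp26a1, which degrades retinoic acid and is induced by it, had 1.01 and 1.72 TPM in KD4, 1.24 and 1.22 TPM in KD9 and 4.87 TPM in Control. Stra8, a retinoic acid target of germ cells, had 10.1 and 11.0 TPM in KD4, 16.6 and 15.2 TPM in KD9 and 87.0 TPM in Control. These 3 genes and Aldh1a3, an enzyme that makes retinoic acid, lay more than 2-fold under Control in both lines, as 3.20% of all tested genes did. Aldh1a3 passed the filter through its Control value alone, so its calls in both lines depend on that value.

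Other genes of that list separated the lines. Crabp1, a retinoic acid binding protein, had 23.7 and 23.8 TPM in KD4, 204 and 197 TPM in KD9 and 344 TPM in Control. Dhrs3, a retinal reductase, had 0.890 and 0.909 TPM in KD4, 9.75 and 9.21 TPM in KD9 and 4.43 TPM in Control. Cdx1, a homeobox gene that acts upstream of Hox genes and responds to retinoic acid, had 1.09 and 2.39 TPM in KD4, 11.0 and 11.2 TPM in KD9 and 13.6 TPM in Control. Dhrs3 was below Control in KD4 and above it in KD9, and Cdx1 was lower in KD4 (log2 -2.90) than in KD9 (-0.29). Cdx2 failed the filter, with 0.488 and 0.224 TPM in KD4, 0.182 and 0.123 TPM in KD9 and 0.604 TPM in Control.

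**Figure D4:**
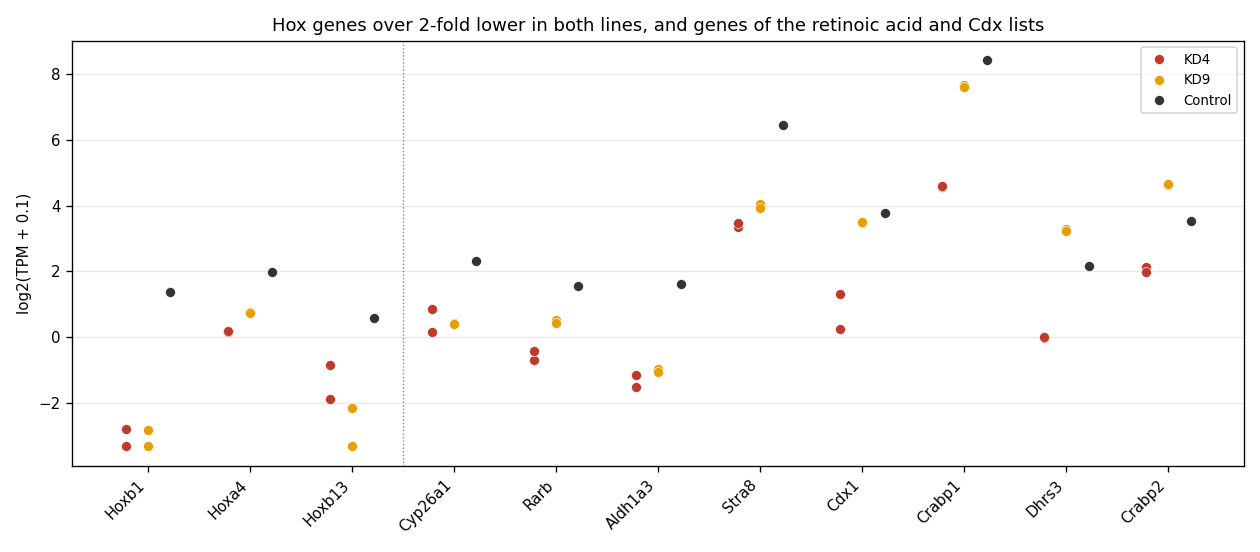
Levels as log2(TPM + 0.1) of 3 of the 4 Hox genes that lay more than 2-fold under Control in both lines, left of the dotted line, and of retinoic acid and Cdx genes, right of it. Points are single columns of KD4, KD9 and Control. Hoxb1 lies near the floor in both lines against 2.52 TPM in Control, and Cyp26a1, Rarb, Aldh1a3 and Stra8 are below Control in all 4 knockdown columns.

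Transcripts from within and beside the clusters were compared next. Of 11 noncoding genes tested within the clusters, 4 were more than 2-fold lower in KD4 (Hoxaas2, Hoxb3os, Hoxd3os1 and Mir10b) and 0 higher (background 9.50% and 5.18%). In KD9 2 were lower, both hairpin loci with a column listed at 0 (Mir10b and Mir196b), and 1 was higher (Hoxa11os), where the background was 5.45% and 4.21%. Such hairpin values are not informative of mature miRNA. Hotairm1, a noncoding RNA of the Hoxa cluster, had 14.0 and 14.6 TPM in KD4, 17.2 and 11.7 TPM in KD9 and 24.8 TPM in Control. Hoxb3os, antisense to Hoxb3, had 3.86 and 4.16 TPM in KD4, 8.67 and 9.34 TPM in KD9 and 9.98 TPM in Control. Hotairm1 was below Control with the lines overlapping, and like most Hoxb genes Hoxb3os was lowest in KD4. The methods state default counting parameters, which ignore strand, so reads of an antisense gene and its partner cannot be told apart.

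Of 12 tested genes that flank the clusters, 0 were more than 2-fold lower in either line (background 9.50% in KD4 and 5.45% in KD9). More than 2-fold higher were 1 in KD4 (Calcoco2, background 5.18%) and 2 in KD9 (Calcoco2 and Ttll6, 4.21%), and the medians on the log2 scale were 0.11 in KD4 and -0.08 in KD9. Calcoco2, an autophagy receptor gene beside Hoxb, had 27.4 and 25.8 TPM in KD4, 25.0 and 23.7 TPM in KD9 and 9.68 TPM in Control, more than 2-fold higher in both lines (background 2.47%). Ttll6, a tubulin-modifying enzyme gene beside Hoxb, had 2.83 and 2.86 TPM in KD4, 4.20 and 4.46 TPM in KD9 and 1.49 TPM in Control. Mtx2, a mitochondrial import gene beside Hoxd, had 21.0 and 24.8 TPM in KD4, 26.6 and 27.1 TPM in KD9 and 29.0 TPM in Control. Evx1, the homeobox gene beside Hoxa13, was under the filter, with 0.174 and 0.308 TPM in KD4, 0.171 and 0.162 TPM in KD9 and 0.203 TPM in Control.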

How the data were processed

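RNA-seq of 3 labelled samples (KD4, KD9 and Control) was used. The authors deposited TPM values, made from featureCounts counts of uniquely mapped reads after trimming (Trim Galore) and HISAT2 alignment to mm10. Versions and the annotation are not given in the sources used here. TPM keeps no depth, so no count model and no counting interval was used. The 2 columns of a knockdown line were averaged as TPM, because the labels name 1 sample per line, although the legends of the study treat them as biological replicates. 1 per-sample column, a second control column, matched no labelled sample and was not used. 24 gene names had become dates and were left unmatched.

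Tests used log2(TPM + 0.1) and genes whose mean TPM over the 3 samples was 0.5 or higher. For a single line only the fold change, over or under 2, is given. The knockdown lines together were compared with Control in limma 3.58.1 under R 4.3.3 (trend, two-sided, 1 residual degree of freedom, Benjamini-Hochberg over 19950 genes), after the script had been tested on simulated data. Sums, medians and promoter counts were made with Python 3.11.15. Every Hox gene with a mean TPM of at least 0.5 was named, and from the other lists up to 4 genes past 2-fold in both lines plus a fixed set. Genes shown outside that rule (Jarid2, Phf19, Aebp2, Meis2, Pbx4, Crabp1, Dhrs3, Cdx1, the receptor genes Rara, Rarg, Rxra and Rxrb, Ttll6, Mtx2, Sox1, Sox17, Elf5 and the noncoding genes in the report, and those in the closing section) were chosen after their values were seen. The Hox genes and all lists were chosen with earlier results of these data known. Alternatives were pseudocounts of 0.5 and 1, other filters, a rescaling by median ratios, single columns, limma without a trend and each column as its own library. Homeodomain sequences were not used here, and the values of 2 genes within these rules are not reported here.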

Additional observations from a re-analysis of the deposited data

Results flagged for a closer look

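For 15 tested Hox genes both KD4 columns lay below Control and both KD9 columns above it. Of all tested genes 8.81% showed this pattern, and 2346 genes showed the opposite one. The log2 differences, KD4 minus KD9, were -1.62 for Hoxc6, -1.57 for Hoxd10, -1.31 for Hoxc4, -1.29 for Hoxb6 and -1.27 for Hoxc12. They were -1.17 for Hoxd4, -1.13 for Hoxa5, -1.13 for Hoxb5, -1.10 for Hoxb3 and -0.99 for Hoxd8. They were -0.87 for Hoxb4, -0.74 for Hoxd3, -0.71 for Hoxc10, -0.61 for Hoxb7 and -0.49 for Hoxa7. Each line has 1 labelled sample, so at that level these differences were not tested. With each column as its own library limma called KD4 below KD9 for these genes except Hoxc4 (adjusted p = 0.0622), Hoxc12, Hoxb5 and Hoxd3. Both lines share the Control column on whose sides they lie. All 24 fibroblast markers had both KD4 columns below both KD9 columns as well (background 29.9%), and their part in this pattern was not tested.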

How the results depend on the processing

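The directions of the medians and of the cluster sums in KD4 were kept under each alternative run. Of 74 fold changes of single Hox genes against Control, 33 moved by more than the spread between columns with a pseudocount of 1, 22 with a pseudocount of 0.5 and 17 after rescaling. The other filters leave a gene's own value as it is, and single columns are bounded by that spread by construction. Over all settings 15 values changed sign, the largest of them at 0.255. With a pseudocount of 1, 8 genes were more than 2-fold lower in KD4 (median -0.65), 0 were higher in KD9, 2 were lower in both lines, and KD4 against KD9 gave 5 lower, 0 higher and a median of -0.66. With a pseudocount of 0.5 the KD4 median was -0.72, 0 genes were higher in KD9, and KD4 against KD9 gave 9 lower and 0 higher. These smaller counts follow from the larger pseudocount. Without a filter, where 39 genes enter, 1 was more than 2-fold higher in KD4, 3 in KD9 and 1 in both, from Hoxa13 and Hoxd12 at 0 in Control. At a mean TPM of at least 1, where 30 genes enter, 2 were lower and 0 higher in KD9, 2 were lower in both lines, and 0 were higher in KD4 than in KD9. With the first column of each line the KD4 against KD9 median was -0.998, and with the second column 0 genes were higher in KD4 than in KD9. Leaving out 1 line gave 4 to 14 genes lower and 0 to 1 higher in the remaining line. With each column as its own library limma called 6 genes lower. For KD9 that fit called 0 (unadjusted 6 lower and 6 higher). With the lines as replicates limma called 0 Hox genes under each setting, and the lowest adjusted p was between 0.170, without a trend, and 0.9999, with the second columns. The cause of the other changes was not tested. Limma without a line was not run, since no residual degrees of freedom are left. No paired analysis was possible because Control has 1 labelled sample, so that the groups share a single replicate number. A rescaling by median ratios moved all genes by 0.0188 in KD4 and 0.0662 in KD9 on the log2 scale, and the sums in KD9 over Control then stood at 0.05 for all Hox genes and 0.02 for the posterior ones, against -0.01 and -0.04 before.

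Every fold change against Control rests on 1 Control column, and values under 1 TPM, which include Hoxb1 and Hoxb13 in the knockdown lines, cannot be given a counting error because TPM keeps no depth.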

Other observations

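Mesenchymal transcription factors, many of them homeobox genes outside the clusters, were set beside the Hox genes. Of 26 tested, 6 were more than 2-fold lower and 0 higher in KD4 (median -0.35, background 9.50% and 5.18%), and 2 were lower and 4 higher in KD9 (median 0.29, background 5.45% and 4.21%). En1, the engrailed homeobox gene, had 4.74 and 5.79 TPM in KD4, 11.2 and 12.5 TPM in KD9 and 27.8 TPM in Control, and Osr2, a palate and limb regulator, had 1.66 and 1.96 TPM in KD4, 1.61 and 1.64 TPM in KD9 and 4.95 TPM in Control. Both lay more than 2-fold under Control in KD4 and KD9 (background 3.20%). Prrx1, a limb mesenchyme gene, had 16.2 and 16.3 TPM in KD4, 50.3 and 50.6 TPM in KD9 and 38.9 TPM in Control. Twist1, a mesenchymal regulator, had 24.8 and 29.6 TPM in KD4, 49.0 and 47.4 TPM in KD9 and 29.3 TPM in Control, so that its KD4 columns lay on both sides of Control.

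Hairpin loci of the Hox clusters ranged widely. Mir10a, which lies beside Hoxb4, was listed at 0 in all 4 knockdown columns and had 0.886 TPM in Control. Mir196a-1, which lies beside Hoxb9, had 16.7 and 18.6 TPM in KD4, 37.9 and 31.0 TPM in KD9 and 18.2 TPM in Control. The libraries were not made for small RNA, so these values say nothing of mature miRNA. Hotair, between Hoxc11 and Hoxc12, was listed at 0 in both KD4 columns and had 0.164 and 0.139 TPM in KD9 and 0.146 TPM in Control.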
